A study of Homo sapiens with 288 samples.

Results

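The genes described are 8 molecules of endothelial cell contacts, PECAM1, CDH5, ESAM, CLDN5, JAM2, JAM3, F11R and CDH2, chosen by symbol from the 17492 protein-coding genes of the tables. All 8 were listed. The rule names symbols and no value, but the set was drawn up with earlier results of these data known. Endothelial cells line the vessels and are held together by adherens junctions, in which cadherins bind each other across the cell border and attach to catenins inside the cell, and by tight junctions, in which claudins and immunoglobulin-like molecules close the gap between cells. VE-cadherin, the product of CDH5, is the cadherin of the endothelial adherens junction, and claudin-5, the product of CLDN5, is best known from the tight junctions of the blood-brain barrier. PECAM1 (CD31), ESAM, JAM2 (JAM-B), JAM3 (JAM-C) and F11R (JAM-A) are immunoglobulin-like molecules of the contact zone, of which F11R is also common in epithelia, whereas CDH2 (N-cadherin) is expressed by many mesenchymal, neural and endothelial cells.

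The cells were derived from H1, an established line of human embryonic stem cells. Endothelial cells (EC) were grown from H1 in the medium E8, with BMP4 at 5 ng/ml and Activin A at 25 ng/ml for 2 days and VEGF and WNT for the following 3 days. Trophoblast-like cells (TB) were grown in E7, which is E8 without FGF2, with BMP4 at 50 ng/ml and the inhibitor SB431542. Both groups are thus differentiated cultures of 1 line, and no separate cultures are named. Single cells were processed on a Fluidigm C1 microfluidic chip, and the stored full-length cDNA of the same 45 EC and 51 TB cells was used in 3 experiments at an equalized input. EQ was pooled at equal volumes, EQ-Vary was pooled at variable volumes, and EQ-75% repeated the EQ procedure at a lower sequencing depth. A separate library preparation is described for EQ-75% and was not found described for EQ-Vary. The values are RSEM expected counts, rounded, and CPM is the count of a gene per 1000000 counts of its cell. Each cell type in each experiment is 1 sample, so the SDs given are between cells, no test between EC and TB or between experiments was possible, and all shares over genes are descriptions.

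After the study's limits on depth and on the part of the counts taken by the top 50 genes, 38 EC and 48 TB cells remained in EQ, 38 and 46 in EQ-Vary and 39 and 50 in EQ-75%. Total counts of these cells ran from 365570 to 3966801 in EQ, from 298384 to 6345138 in EQ-Vary and from 291354 to 3798198 in EQ-75%. The labels were checked on marker genes, of which 18 of 20 endothelial markers were at least 4-fold higher in EC (summed level 535 to 9674 CPM per EC cell and 13.4 to 608 per TB cell). KDR, the main VEGF receptor, had a mean of 1600 ± 710 CPM (SD) in EC and 4.27 ± 5.45 in TB. Of 15 trophoblast markers, 7 were at least 4-fold higher in TB, among them VTCN1 (1142 CPM in TB and 3.64 in EC), while GATA3 was at 236 CPM in TB and 120 in EC and CDX2, CGB5 and PGF had means under 1 CPM in TB. Of 10 mesenchymal markers, 5 were at least 4-fold higher in TB and 0 in EC (summed level 22.4 to 3693 CPM per EC cell and 861 to 11125 per TB cell). LUM, COL3A1 and DCN were high in TB, with means of 3042, 735 and 429 CPM beside EC means of 10.2, 2.41 and 1.87, whereas COL1A2 was at 840 CPM in EC and 294 in TB and PDGFRB at 14.9 and 14.5. The part of other cell types in the differences below was not tested.

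By the mean, the junction genes divided into those at least 4-fold higher in EC and those that differed by less. In EQ, 5 of the 8 genes (PECAM1, CDH5, ESAM, CLDN5 and JAM3) had a mean at least 4-fold higher in EC than in TB, on the scale of log2(mean CPM + 1), and 5.70% of all genes did. None of the 8 was at least 4-fold higher in TB, where 7.96% of all genes were. The median log2 ratio of EC to TB was 4.46 over the 8 genes and 0 over all genes. The same 5 genes passed in EQ-Vary and EQ-75%. JAM2, F11R and CDH2 were under 4-fold in all 3 experiments, with log2 ratios between 0.46 and 1.24. With the 10 cells kept that failed the limits in EQ, the log2 ratios of CDH5, ESAM and JAM3 were 5.63, 5.36 and 5.52, still past 4-fold.

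**Figure D1:**
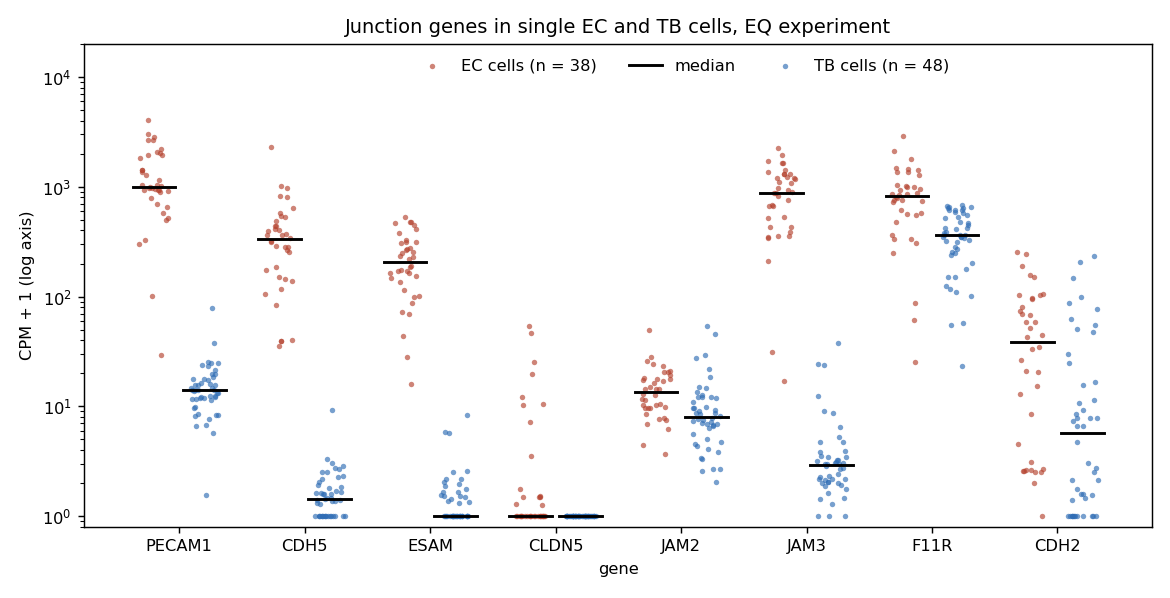
Level of each junction gene in every passing cell of EQ, as CPM + 1 on a log axis, with EC cells in red, TB cells in blue and a black bar at the median. CDH5 and ESAM separate the 2 cell types without overlap, CLDN5 is at 0 in most EC cells, and the points of JAM2, F11R and CDH2 overlap broadly.

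CDH5 (ENSG00000179776, chromosome 16 of GRCh38 from 66366690 to 66404784, plus strand) had the highest ratio of the 8 genes and ranked 10 among all genes. Its level in EC cells ran from 34.4 to 2282 CPM with a median of 332, and in TB cells from 0 to 8.21 with a median of 0.45. The means were 406 ± 399 (SD, n = 38 cells) and 0.75 ± 1.27 CPM (SD, n = 48 cells), a log2 ratio of 7.86, so that TB held 0.185% of the EC level. The lowest EC cell in EQ was above the highest TB cell.

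CDH5 was nevertheless seen at a count of 1 or more in 31 of 48 TB cells of EQ, a share of 64.6% (exact binomial 95% interval 49.5 to 77.8, for counting error only, as for all intervals here). Because the cDNA of each cell was sequenced again, it could be asked whether the same TB cells held these counts in the other experiments. Of the 46 TB cells that passed in EQ and EQ-Vary, 15 had CDH5 in both, 15 in EQ alone, 12 in EQ-Vary alone and 4 in neither, and the Spearman correlation of the levels over these cells was -0.25. Between EQ and EQ-75% it was again -0.25, over 47 cells. ESAM, with the same summed count of 56 in TB, had correlations of 0.31 and 0.41. The levels of CDH5 in TB cells thus showed no positive relation between experiments on the same cells. All 48 TB cells together held 56 CDH5 counts (exact Poisson 95% interval 42.3 to 72.7).

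One TB cell was an exception in EQ-75%. TB 4 had 44.02 CPM of CDH5 there, above the lowest EC cell of that experiment (EC 15, 21.9 CPM). JAM3, next to CDH5 by the ratio of EC to TB in EQ, was at 1.0 CPM in the same library. TB 4 did not pass in EQ or EQ-Vary, where its libraries held 45821 and 12319 counts. Those 2 shallow libraries had 65.5 and 81.3 CPM of CDH5, from 3 counts and 1 count, but also 131 and 163 CPM of JAM3. Such levels were not particular to TB 4. Of the other failed TB libraries of EQ, TB 28 had 241 CPM of CDH5 from 3 counts and 563 CPM of JAM3, while TB 48 had 0 of both.

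ESAM (ENSG00000149564, chromosome 11 from 124752583 to 124762290, minus strand) was the other gene whose cells did not overlap in EQ. EC cells had between 15.0 and 527 CPM with a median of 204, and TB cells between 0 and 7.34 with a median of 0. The means were 229 ± 137 and 0.64 ± 1.41 CPM, a log2 ratio of 7.13. Every EC cell was above every TB cell for only 7 of the 17492 genes in EQ, or 0.0400%, and CDH5 and ESAM were 2 of them. The other 5 were KDR, FLI1, GNG11, IGFBP4 and RASIP1, which were named after their values were seen. ESAM remained separated in EQ-Vary and EQ-75%, but its lowest EC cell, EC 4, held only 2 counts in each. That was 6.04 and 4.55 CPM, beside 2.87 and 3.77 CPM in the highest TB cell. CDH5 was separated in EQ-Vary but not in EQ-75%. PECAM1 was separated in EQ-Vary (27.7 against 25.9 CPM), where TB 9, at 111 CPM, did not pass. The share of all genes without overlap was taken in EQ only.

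PECAM1 (ENSG00000261371, chromosome 17 from 64319415 to 64413776, minus strand) was present in both cell types at levels far apart. EC cells had from 28.7 to 4032 CPM with a median of 1005, and TB cells from 0.57 to 77.4 with a median of 13.2. The means were 1317 ± 883 and 15.0 ± 11.2 CPM, a log2 ratio of 6.37. The cell types met at 1 EC cell and 2 TB cells. The EC cell was EC 43, whose PECAM1 level was 28.7, 27.7 and 24.8 CPM in the 3 experiments while its endothelial markers summed to between 3622 and 3774 CPM. The highest TB cell was TB 9, at 77.4 CPM in a library of 529668 counts.

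JAM3 (ENSG00000166086, chromosome 11 from 134069071 to 134152001, plus strand) ran from 15.9 to 2260 CPM in EC cells with a median of 886, and from 0 to 36.4 in TB cells with a median of 1.94. The means were 921 ± 533 and 3.78 ± 6.72 CPM, a log2 ratio of 7.59. The overlap in EQ came from EC 15 and EC 4, at 15.9 and 29.97 CPM, and from 3 TB cells, led by TB 39 at 36.4. TB 39 had 33.7 and 33.6 CPM in the other experiments, so its JAM3 level recurred. JAM3 shares 48.2% of its 51-base stretches, within 2 mismatches and on either strand, with NCAPD3, a condensin gene that overlaps it on the opposite strand, and whether the counting used the strand is not stated. NCAPD3 had a mean of 13.9 CPM in EC (median 0.75, highest cell 169) and 17.1 in TB (median 0.90, highest cell 133), and its Spearman correlation with JAM3 was -0.13 in EC and 0.04 in TB.

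CLDN5 (ENSG00000184113, chromosome 22 from 19523024 to 19527545, minus strand) was the least often detected. Its mean in EC was 4.84 ± 11.96 CPM with a median of 0, and all 48 TB cells of EQ were at 0. With TB set at a floor of 3 counts over the whole group, EC was 162-fold higher by pooled counts. This is not a lower limit, as the exact Poisson upper limit of the TB sum was 3.69 counts. Of the 394 counts in EC, EC 13 held 111 and EC 32 held 97. It was seen in 16 of 38 EC cells of EQ (42.1%, interval 26.3 to 59.2), 11 of 38 in EQ-Vary and 13 of 39 in EQ-75%. The 0 of 48 TB cells allows a share of cells with a count of up to 6.25% by a floor of 3 cells and 7.40% by the exact binomial interval, and 1 TB cell of 50 held 1 count in EQ-75%. Although CLDN5 counts as 4-fold higher in EC by the mean, more EC cells of EQ were at 0 (22) than not.

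The 3 experiments separated EC cells with repeated CLDN5 counts from those without. No separate library preparation was found described for EQ-Vary, so EQ and EQ-Vary may not be independent, and EQ-75% is the separate repeat. Of the 37 EC cells that passed in all 3 experiments, 17 had no CLDN5 count in any experiment, 11 had it in 1 experiment, 0 in exactly 2 and 9 in all 3. In each of the 11 cells the single positive experiment held just 1 count, with levels of at most 2.28 CPM. The 9 cells (EC 6, EC 11, EC 13, EC 18, EC 19, EC 20, EC 22, EC 24 and EC 32) reached between 2.56 and 54.4 CPM in their highest library. EC 32 had 45.6, 54.4 and 54.2 CPM in the 3 experiments and EC 19 had 24.3, 21.1 and 21.9, so both were nearly constant. EC 13 had 52.9 and 45.3 CPM in EQ and EQ-Vary but 6.79 in EQ-75%. EC 1 passed in EQ-75% alone and had the highest level of any passing EC library, at 66.5 CPM from 90 counts. CLDN5 was thus found repeatedly in a minority of EC cells.

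The other JAM genes were shared by both cell types. F11R (ENSG00000158769, chromosome 1 from 160995211 to 161021343, minus strand) had between 24.3 and 2873 CPM in EC cells with a median of 820, and between 22.5 and 680 in TB cells with a median of 362. The means were 884 ± 577 and 373 ± 189 CPM, a log2 ratio of 1.24, which is smaller than the SD of log2(CPM + 1) between EC cells (1.36). In EQ 13 of 38 EC cells were at or below the highest TB cell. JAM2 (ENSG00000154721, chromosome 21 from 25639258 to 25717562, plus strand) was low in both, at 13.9 ± 8.36 CPM in EC and 9.87 ± 10.1 in TB, and all 38 EC cells were at or below the highest TB cell. Its log2 ratio was 0.46, 0.58 and 0.53 in the 3 experiments, against an SD between EC cells of 0.76 in EQ.

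Since longer transcripts give more fragments, levels were compared between genes only per kilobase of the MANE Select transcript. In EC, JAM3 held 55.3% ± 20.5 (SD, n = 38 cells) of the summed CPM per kilobase of F11R, JAM2 and JAM3, F11R held 43.5% ± 20.4 and JAM2 1.14% ± 1.34. JAM3 was the highest of them in 23 EC cells and F11R in 15. In TB, F11R held 94.7% ± 6.52 (SD, n = 48 cells) and was the highest in all 48 cells. The ranges of the F11R share overlapped, from 5.98 to 96.7% in EC cells and from 68.0 to 99.3% in TB cells.

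Over all 8 genes the order per kilobase in EC was JAM3 (245 CPM per kilobase), PECAM1 (193), F11R (191), ESAM (125), CDH5 (100.2), CDH2 (14.5), CLDN5 (3.50) and JAM2 (3.19). The SDs between cells of the first 5 genes, from 74.6 to 141, were larger than the distance of each from its neighbour, so these neighbours did not differ beyond their spread. The step down from CDH5 to CDH2 was also within the SD of CDH5 (98.4), as CDH2, CLDN5 and JAM2 were within the SD of CDH2 (16.7). These SDs are between cells for 1 gene and leave out that the genes were measured in the same cells. Within cells, CDH5 was the highest of the cadherins described below in 32 of 38 EC cells and CDH2 in 3. With the mean length of the coding transcripts in place of MANE Select, PECAM1 came first and JAM3 second. In TB the order was F11R (80.5), CDH2 (6.37), JAM2 (2.27), PECAM1 (2.20), JAM3 (1.003), ESAM (0.35), CDH5 (0.19) and CLDN5 (0), and F11R stood above CDH2 by more than the SD of either. The other neighbours were within the SD of 1 of the pair.

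The cadherins also differed between the cell types. CDH2 (ENSG00000170558, chromosome 18 from 27932879 to 28177946, minus strand) ran from 0 to 252 CPM in EC cells with a median of 37.5, and from 0 to 231 in TB cells with a median of 4.71. The means were 58.3 ± 66.9 and 25.6 ± 51.01 CPM, a log2 ratio of 1.16. By the medians over cells in place of the means the log2 ratio was 2.75, past the 4-fold limit. In EC, 17 of 38 cells had at least 50 CPM and held 87.9% of the summed CDH2 level, while 11 cells were under 5 CPM, of which 1 was at 0. In TB, 9 of 48 cells had at least 50 CPM and held 82.2%, and 24 were under 5 CPM, of which 12 were at 0. These levels of 5 and 50 CPM were set after the values were seen.

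Per kilobase and over the 5 cadherins CDH5, CDH2, CDH1, CDH3 and CDH11, CDH5 held 66.3% ± 24.1 (SD, n = 38 cells) in EC and was the highest in 32 of the 38 cells. CDH2 held 13.9% ± 16.3 and was the highest in 3 cells, CDH11 in 2 and CDH3 in 1. In TB, E-cadherin (CDH1) held 49.005% ± 18.9 (SD, n = 48 cells) and P-cadherin (CDH3), both cadherins of epithelia, 45.6% ± 19.8, and either CDH1 (27 cells) or CDH3 (21 cells) was the highest in every TB cell. CDH5 held 0.1% ± 0.149 in TB and CDH2 3.30% ± 6.89. EC cells thus carried VE-cadherin as the leading cadherin and TB cells the epithelial cadherins.

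A rounded count of at least 1 was present in at least 90% of the EC cells of EQ for 7 of the 8 genes, and for 30.5% of all genes. CLDN5 was the exception. PECAM1, CDH5, ESAM, JAM2, JAM3 and F11R were detected in 38 of 38 EC cells in EQ (interval 90.7 to 100%) and in all passing EC cells of the other experiments, and CDH2 in 97.4% of EC cells of EQ, 92.1% of those of EQ-Vary and 89.7% of those of EQ-75%. In TB, PECAM1, JAM2 and F11R were detected in all 48 cells of EQ, JAM3 in 93.8%, CDH2 in 75.0%, CDH5 in 64.6% and ESAM in 43.8%. With each cell thinned to 250000 counts the shares in TB fell to 92.9% for PECAM1, 79.1% for JAM2, 42.1% for JAM3, 15.5% for CDH5 and 11.8% for ESAM, and in EC CDH2 fell to 80.4% and CLDN5 to 23.4%. The detection of CDH5, ESAM and JAM3 in TB therefore varied with depth.

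**Figure D2:**
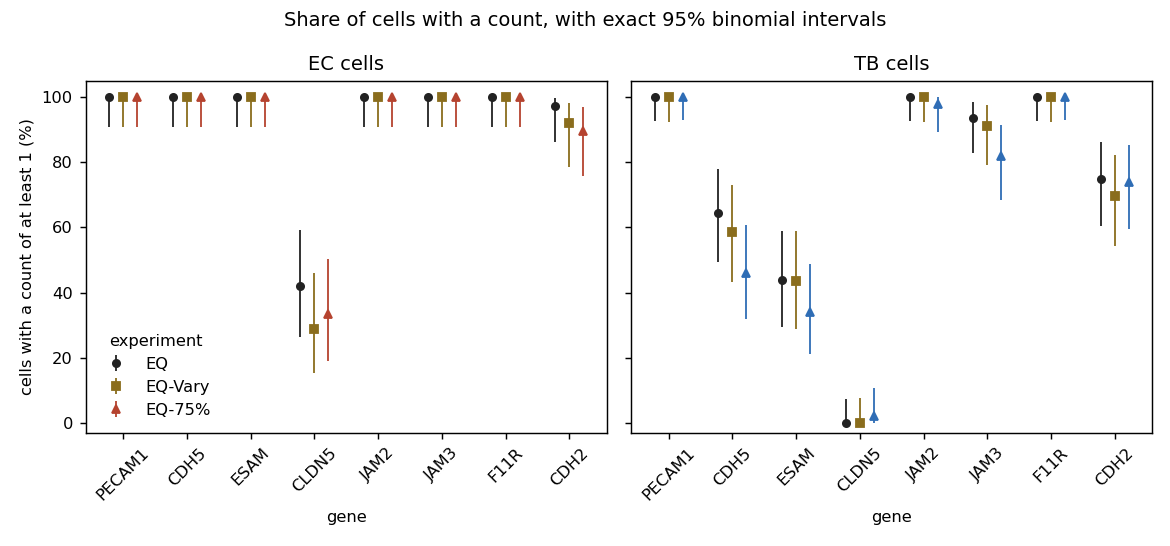
Share of passing cells with a rounded count of at least 1 for each gene, in percent, in EC cells (left) and TB cells (right), with 1 symbol per experiment and exact 95% binomial intervals as bars. In EC cells only CLDN5 is far from 100%, and in TB cells the shares of CDH5, ESAM and JAM3 are lowest in EQ-75%.

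PECAM1 and JAM2 had counts in every TB cell of EQ, with means of 15.0 and 9.87 CPM, and their values had traits in common that the other low genes did not share. Of their nonzero values in EQ, 94.8% (PECAM1) and 97.8% (JAM2) were not whole numbers, as for F11R (99.0%), whereas for the other 5 genes the share was between 43.8% and 55.9%. RSEM gives fractional counts where it divides a read among genes, but CDH5, ESAM, CLDN5 and CDH2 also had such values with 0 of the stretches counted next. Of the 51-base stretches of the transcripts, 2.50% in PECAM1, 4.80% in JAM2 and 8.05% in F11R lay within 2 mismatches of other coding genes, of which there were 678, 618 and 1542. Such values are common, since 60.4% of the 4805 genes detected in at least 90% of both cell types had 90% or more of their values not whole. Over TB cells the levels of PECAM1 and JAM2 moved together, with Spearman correlations of 0.57, 0.40 and 0.62 in the 3 experiments, and their correlations with the total count were -0.42 and -0.35 in EQ (n = 48 cells). The shares of values that were not whole were taken over EC and TB cells together, and JAM2 was low in EC as well. The share of reads of other genes in the TB levels of PECAM1 and in the JAM2 levels of both cell types was not tested. These levels, and the detection and correlations of JAM2 in EC, are uncertain.

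The same cells could be followed from EQ to EQ-75%. Over the 37 EC cells that passed in both, the mean within-cell change of log2(CPM + 1) had a median over the 8 genes of -0.149, and the change was negative for each gene. ESAM alone of the 8 genes changed by more than its SD, with -0.43 ± 0.37 (SD, n = 37 cells), lower in 35 cells and higher in 2. Its mean over these cells went from 228 to 180 CPM. JAM3 changed by -0.15 ± 0.32 and was lower in 33 of 37 cells, and F11R by -0.14 ± 0.23, lower in 30. PECAM1 changed by -0.05 ± 0.16 and CDH5 by -0.09 ± 0.23. For these 4 genes, and for CLDN5 (-0.25), JAM2 (-0.23) and CDH2 (-0.13), the mean change was smaller than the SD between cells. A change of -0.25 or lower was found for 2 of the 8 genes, ESAM and CLDN5, which is near the background of 21.2% of the 11490 genes with at least 1 CPM in EC. This limit was set after the values were seen. The median change was -0.04 over all genes and -0.13 over those with at least 5 CPM. From EQ to EQ-Vary the change of ESAM was -0.02 ± 0.23 (SD, n = 38 cells), with 19 cells lower and 19 higher.

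**Figure D3:**
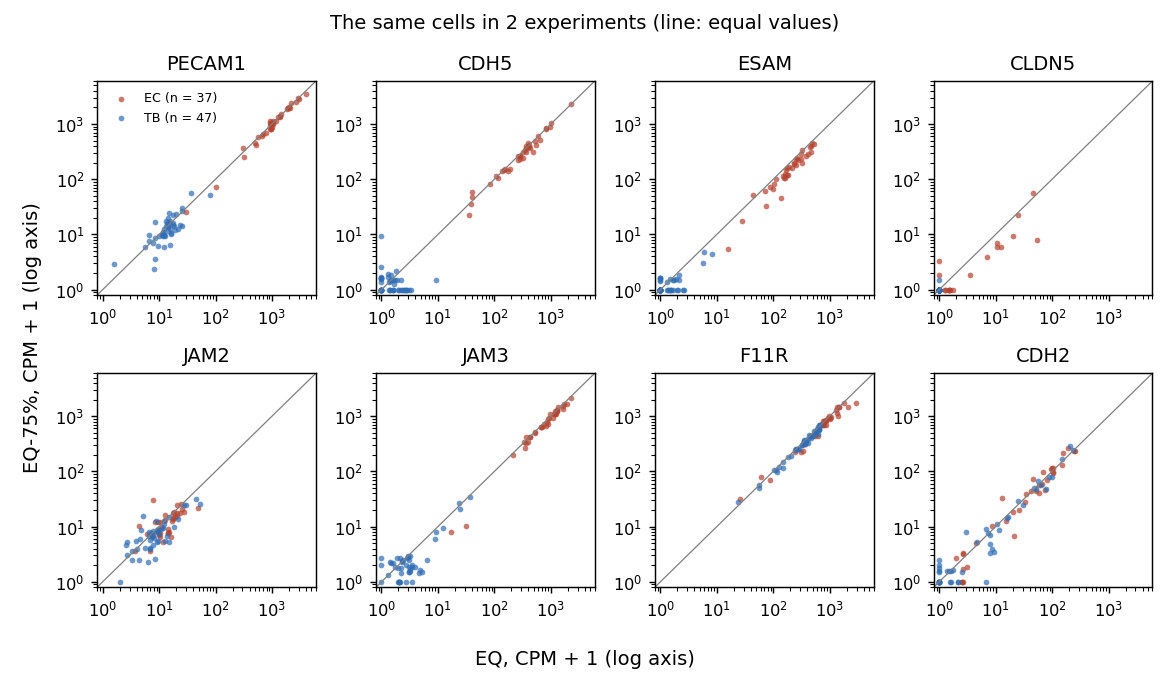
Level of each junction gene in the same cells in EQ (horizontal) and EQ-75% (vertical), both as CPM + 1 on log axes, with EC cells in red, TB cells in blue and the line of equal values in grey. The EC points of ESAM lie below the line in 35 of 37 cells. Those of JAM3 (33 of 37) and F11R (30 of 37) are also mostly below but closer to it. The EC points of PECAM1 and CDH5 lie close to the line, and the TB points of CDH5 show no relation.

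The rank of single EC cells was kept between EQ and EQ-75% for the abundant genes. The Spearman correlation over the 37 EC cells was between 0.968 and 0.992 for PECAM1, CDH5, ESAM, JAM3, F11R and CDH2, and 0.74 for CLDN5 and 0.67 for JAM2. For JAM2 this was near the median of 0.70 over the 803 genes with 5 to 20 CPM in EC, and for the genes of 200 to 2000 CPM the median was 0.97. In TB the correlation over 47 cells was 0.98 for F11R, 0.88 for CDH2, 0.74 for PECAM1, 0.71 for JAM2, 0.41 for ESAM and 0.35 for JAM3. The differences between EC cells in the abundant genes therefore recurred between libraries made from the same stored cDNA.

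The size of this spread was compared with genes of like abundance. The SD of log2(CPM + 1) between EC cells, divided by the median SD of the 500 genes nearest in mean, was 1.25 for JAM3, 1.19 for PECAM1, 1.18 for F11R, 1.08 for CDH2, 1.03 for CDH5, 0.95 for CLDN5, 0.76 for ESAM and 0.32 for JAM2. It was above 1 for 5 of the 8 genes and for 49.9% of the 14035 genes with a value. The count rested on few cells, since without EC 4, EC 15 and EC 43, left out after the values were seen, 2 of the 8 genes were above 1. ESAM, JAM2 and CLDN5 were below 1 in all 3 experiments (0.76 to 0.82, 0.27 to 0.33 and 0.91 to 0.99). In TB, CDH2 was at 1.06, F11R at 0.95, and PECAM1, CDH5, ESAM, JAM2 and JAM3 were between 0.36 and 0.59.

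**Figure D4:**
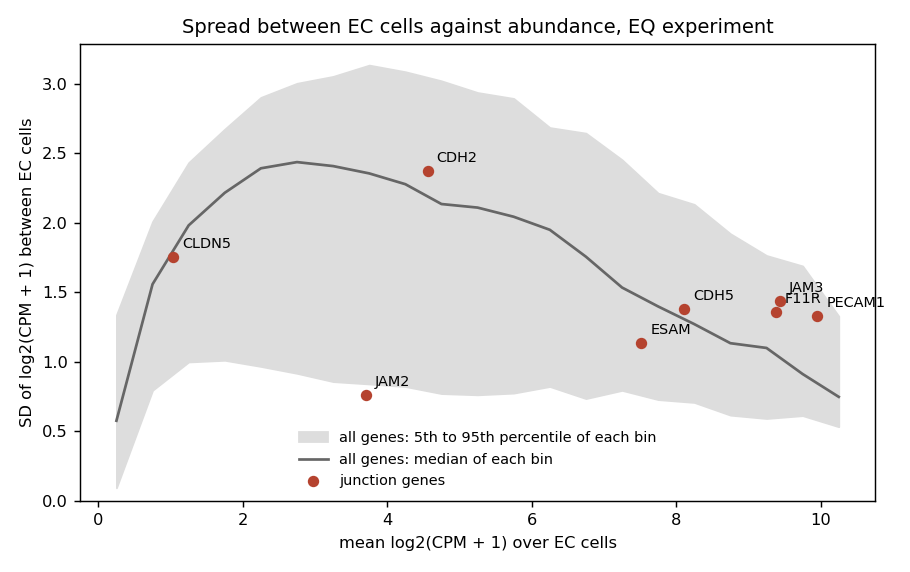
SD of log2(CPM + 1) between EC cells of EQ (vertical) against mean log2(CPM + 1) (horizontal), with the median of all genes in bins of the mean as a line, the 5th to 95th percentile as a grey band and the junction genes as red points. JAM2 lies below the lower edge of the band, and JAM3, PECAM1 and F11R lie above the line.

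Low values of several genes fell in the same few EC cells. EC 15 was the lowest for CDH5 (34.4 CPM) and JAM3 (15.9) and second lowest for PECAM1 (99.6) and ESAM (27.4), yet its F11R was 1045 CPM. Its summed endothelial markers were 535 CPM, the lowest of the EC cells of EQ, and its summed trophoblast markers were 2270 CPM, the highest, in a library of 2007482 counts. EC 4 was the lowest for ESAM (15.0 CPM) and second lowest for JAM3 (29.97), with 574 CPM of PECAM1 and 368 of CDH5, from 600592 counts. EC 43 was the lowest for PECAM1 (28.7 CPM) and F11R (24.3), with 256.5 CPM of CDH5 and 209.7 of JAM3, from 2756860 counts. At the other end, EC 23 had the highest CDH5 (2282 CPM) and JAM2 (48.5) of the EC cells but 301 CPM of PECAM1, the third lowest, and EC 25 had the highest PECAM1 (4032 CPM). Several of these extremes recurred in EQ-75%, where EC 15 had 21.9 CPM of CDH5, EC 43 24.8 of PECAM1 and EC 23 2294 of CDH5. The JAM2 level of EC 23 did not, at 20.5 CPM there, below EC 4 at 29.6. Its PECAM1 level (368 CPM) was then above that of EC 37 (252).

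Of the 28 pairs of junction genes over EC cells, 2 had a Spearman correlation of at least 0.4, PECAM1 with ESAM (0.50 in EQ, 0.52 in EQ-Vary, 0.43 in EQ-75%) and PECAM1 with F11R (0.45, 0.44 and 0.41), against 1.70% of all pairs of genes detected in at least 25% of EC cells. Values of 1 cell come from 1 stored cDNA in each experiment, so they are not independent. The count was 4 with all 45 EC cells and 5 by Pearson correlation. Without EC 4, EC 15 and EC 43, 1 pair remained, PECAM1 with F11R at 0.43, and PECAM1 with ESAM was at 0.399. CDH5 and PECAM1, both markers of endothelium, had a correlation of 0.18, 0.17 and 0.14. The lowest values were those of JAM2 with CDH5 (-0.41) and with PECAM1 (-0.40), at -0.34 and -0.13 in EQ-Vary and -0.19 and -0.25 in EQ-75%. CLDN5 with CDH2 was at 0.36, 0.40 and 0.34.

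**Figure D5:**
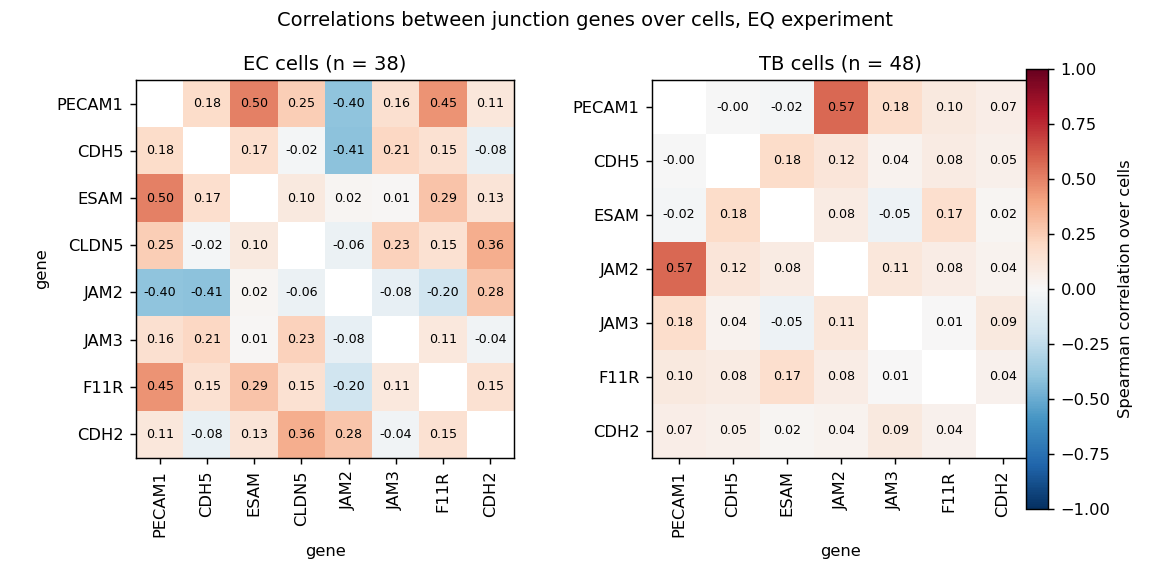
Spearman correlation of log2(CPM + 1) between the junction genes over the EC cells (left) and TB cells (right) of EQ, from -1 (blue) to 1 (red), with CLDN5 left out in TB because it was at 0 in every cell. In EC the reddest fields are PECAM1 with ESAM and with F11R, and in TB PECAM1 with JAM2.

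For each gene, those most like it over the 38 EC cells of EQ were sought among 8892 genes. Picking the highest of so many values raises them by itself, here and in TB, and no background for the highest values was computed. The EQ-75% values given beside them come from the cDNA of the same cells and are no independent check. The genes nearest to PECAM1 were CRIM1 (Spearman correlation 0.61), FAM107B (0.60) and the connexin GJA4 (0.58). GJA4 was also the nearest to ESAM (0.58), followed by VPS26B (0.55) and RHOG (0.55). Nearest to CDH5 was PLVAP (0.68), which encodes the diaphragm protein of fenestrated endothelium, followed by OPTN (0.59) and NAV1 (0.55). JAM3 had RANGAP1 (0.55), CYYR1 (0.54) and STX3 (0.53), F11R had BHLHE40 (0.59), SIAH1 (0.57) and the endothelial ribonuclease RNASE1 (0.52), and CDH2 had PRND (0.52), CNPY4 (0.51) and TNFRSF10C (0.51). CLDN5 had SEL1L3, GCC2 and COPS7B (0.56 to 0.58), and JAM2 had PDP2, IRF4 and MAP3K9 (0.64 to 0.65). In EQ-75% the correlations of these genes were 0.58 to 0.62 for PECAM1, 0.56 to 0.63 for CDH5, 0.48 to 0.57 for ESAM, 0.46 to 0.56 for JAM3, 0.40 to 0.57 for F11R, 0.21 to 0.44 for CDH2, 0.29 to 0.32 for CLDN5 and 0.31 to 0.68 for JAM2. For the 3 genes nearest to JAM2, between 94.5% and 100% of the nonzero values of EQ were not whole numbers.

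Over the 48 TB cells, the genes most like PECAM1 were RNF125 (0.86), TRIM72 (0.85) and ANKS4B (0.83), and those most like JAM2 were ADM2 (0.76), SLC2A5 (0.74) and LIX1L (0.73). Between 97.9% and 100% of the nonzero values of these 6 genes were not whole numbers. None of them is among the endothelial lists, and the 3 genes nearest to PECAM1 in TB were others than in EC. For F11R the nearest in TB were OSBPL1A (0.58), the nectin PVRL3 (0.57) and KLHDC8B (0.52), and for CDH2 GLI3, SAR1B and ZFAS1 (0.48 to 0.49). Those of CDH5 (CH507-9B2.5, TSC2 and TST), at 0.52 to 0.56 in EQ, were between -0.29 and -0.13 in EQ-75%. For ESAM (RPS29, XRN2 and TXNL1) and JAM3 (TRANK1, ZNF718 and DCAF4) they were between 0.47 and 0.52 in EQ and between -0.01 and 0.26 in EQ-75%.

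Other genes of cell contacts were described as lists beside the 8 genes, with a median log2 ratio of EC to TB of 0 over all genes. Of 11 other cadherins measured, 3 were at least 4-fold higher in EC and 4 in TB. PCDH1 (15.2 CPM in EC and 0.07 in TB) and PCDH12 (27.6 and 1.53), a protocadherin of endothelium, were higher in EC, and CDH1 (18.9 and 558) and CDH3 (21.1 and 486) in TB. Of the 10 partners of cadherins, 2 were at least 4-fold higher in EC and 0 in TB, with a median log2 ratio of 0.26. These were the phosphatases PTPRB (215 and 8.63 CPM), which acts on VE-cadherin, and PTPRM (112 and 8.89). The catenin JUP was at 109 and 134 CPM and CCM2 at 9.40 and 18.4, and 8 of the 10 partners differed by less than 4-fold.

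The lists of other junction components held more genes past 4-fold in TB than in EC, as all genes did (7.96% and 5.70%). Of 16 scaffold and polarity genes, 0 were at least 4-fold higher in EC and 4 in TB, with a median log2 ratio of -1.05. The lowest ratios were those of CGN, the cingulin of epithelial tight junctions (5.86 CPM in EC and 182 in TB), and INADL (17.7 and 229), and the highest those of CGNL1, a relative of CGN also found in endothelium (309 and 114), and MAGI3 (9.40 and 6.18). Of 15 other claudins, 1 was at least 4-fold higher in EC and 6 in TB, with a median log2 ratio of -0.10. CLDN11 was at 64.3 ± 188 CPM in EC and 7.44 ± 10.6 in TB, and CLDN12 at 31.04 and 20.6. CLDN9 (0.20 and 17.997) and CLDN3 (0 and 12.7) were higher in TB. The median of CLDN11 over EC cells was 7.42 CPM and its highest EC cell was at 972. Of the 6 genes of nectins and afadin, 0 were at least 4-fold higher in EC and 1 in TB, PVRL4 (13.7 and 109 CPM), and of 10 desmosome genes 0 in EC and 3 in TB, among them PKP2 (11.7 and 260) and PERP (35.6 and 294).

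Of 10 gap junction connexins, 3 were at least 4-fold higher in EC and 0 in TB, with a median log2 ratio of 0, and 6 had means under 1 CPM in EC and 7 in TB. GJA4 (connexin 37, of arterial endothelium) was at 197 ± 194 CPM in EC and 0.78 ± 1.11 in TB, and GJA1 (connexin 43) at 715 ± 487 and 22.2 ± 35.02. Of 13 other contact proteins of endothelium, 5 were at least 4-fold higher in EC and 1 in TB, with a median log2 ratio of 1.85. MCAM (CD146) was at 300 ± 235 CPM in EC and 5.28 ± 15.5 in TB, and RASIP1, which acts in vessel lumen formation, at 52.0 ± 47.4 and 0.13 ± 0.33. CXADR, the virus receptor of epithelial junctions, was higher in TB (170 and 694 CPM), and CD99 was at 484 and 571.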

How the data were processed

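The authors trimmed reads to 51 bp, mapped them with Bowtie 1.2.3 (up to 2 mismatches) to the protein-coding genes of GRCh38 and estimated counts with RSEM 1.2.31. The deposited values are these expected counts, not normalized, for 288 libraries. Counts were rounded, scaled to CPM, and cells were kept at a log10 total count of at least 5.4 and at most 31% of counts in the top 50 genes, as in the methods. Levels resting on 1 to 3 counts carry a large counting error. No doublet caller was run, and per the methods doublets seen in cell images had been removed.

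Cells of 1 type in 1 experiment were 1 sample, so no test was run. Ratios of EC to TB were log2((mean CPM + 1)/(mean CPM + 1)), called at 4-fold. Same-numbered cells share their cDNA, as the methods and labels state, and were compared as pairs. Intervals were exact. The members and lists were chosen with earlier results of these data known. From each list the 2 highest and 2 lowest ratios at 5 CPM or more, and defining markers, were named; others were named after their values were seen. Like genes were the 3 with the highest Spearman correlation among genes detected in at least 50% of cells. Coordinates and MANE Select lengths were from GENCODE 44. Ratios, thinning and spread were tested on simulated data. Tools were Python 3.11.15, numpy 2.4.6, pandas 2.3.3, scipy 1.17.1, matplotlib 3.10.9 and scran 1.30.0 in R 4.3.3. Alternatives were other cells, experiments, scalings, pseudocounts and averages.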

Additional observations from a re-analysis of the deposited data

How the results depend on the processing

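The count of 5 genes at least 4-fold higher in EC was 5 under every alternative tried, but with medians over cells CDH2 (2.75) replaced CLDN5 (0). With all 96 cells kept, the log2 ratios of CDH5, ESAM and JAM3 were 5.63, 5.36 and 5.52 in place of 7.86, 7.13 and 7.59, and with a pseudocount of 0.1 CPM ESAM was at 8.27 and CLDN5 at 5.63. The number of genes with a spread above 1 was 5, against 3 with all cells and 2 without EC 4, EC 15 and EC 43. The number of pairs at 0.4 or more was 2, against 4 with all cells, 5 by Pearson correlation, 1 without those 3 cells and 0 by Pearson correlation without them; the cause was not tested. The change from EQ to EQ-75% was -0.149 with the cells paired and -0.115 without the pairing (no replicate block). With a count of at least 5 required, CLDN5 was detected in 23.7% of EC cells and CDH2 in 76.3%. The median log2 ratio over genes of at least 1 CPM was -0.07 by total count, -0.01 by scran and 0.06 by upper quartile, and no gene crossed 4-fold with the scaling. Depth limits the detection of CLDN5 in EC (394 counts in all in EQ) and of CDH5, ESAM and JAM3 in TB (56 to 375 counts each). CLDN5 had 0 counts in TB of EQ.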

Other observations

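Of the 7 EC cells left out of EQ, 3 (EC 1, EC 14 and EC 41) had between 11418 and 13967 counts, and 4 (EC 40, EC 42, EC 44 and EC 45) had between 36.6% and 57.6% of their counts in the 50 most abundant genes. PECAM1 was between 526 and 1228 CPM in the first 3 cells and between 135 and 359 CPM in the other 4. CDH5 was between 34.05 (EC 45) and 672 CPM (EC 40), and JAM3 between 90.1 and 1052 CPM. All 7 libraries had PECAM1, CDH5, ESAM, JAM3 and F11R counts, and none had CLDN5. The single ESAM count of EC 1 stood for 87.7 CPM, above its 66.5 CPM of CLDN5 in EQ-75%, so such libraries could miss CLDN5. CDH5 in EC 41 was also 1 count. A failed TB library of EQ, TB 28 with 12442 counts, held 563 CPM of PECAM1, 241 of CDH5, 161 of ESAM and 563 of JAM3. TB 48, also failed, held 350 CPM of PECAM1 and 0 of CDH5, ESAM and JAM3. The source of these counts was not tested. EC 45 had 131 CPM of JAM2, above the highest passing EC cell (48.5).

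TAL1, a transcription factor of blood and early endothelium, was at 212 ± 340 CPM in EC and 1.96 ± 2.42 in TB, and was the 1 of 9 blood markers at least 4-fold higher in EC. Of 7 pluripotency markers and 10 markers of primitive streak and endoderm, 0 were at least 4-fold apart in either direction. The pluripotency markers summed to a median of 413 CPM in cells of either type, and to at most 2947 in an EC cell and 1135 in a TB cell. The streak and endoderm markers summed to at most 42.5 CPM in an EC cell and 44.9 in a TB cell.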
